A study of Mus musculus with 10 samples.

Results

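Satellite cells are the stem cells of skeletal muscle, and the 10 genes described here are transcription factors and surface proteins by which they and their myoblast progeny are known. They are *Pax7*, *Pax3*, *Myf5*, *Myod1*, *Myf6*, *Cdh15*, *Calcr*, *Chodl*, *Sdc4* and *Megf10*, taken by gene symbol from the 19505 genes that the platform annotation names. Each of the 10 was measured by 1 probe set, so that no choice between probe sets was needed. Their log2 signals were compared between gastrocnemius (GTN) muscles of 5 mTKO and 5 ctrl mice, 1 mouse per array.

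All mice were males at postnatal day 60 on a standard chow diet and carried 2 floxed *Txnrd2* alleles (*Txnrd2* fl/fl). The mTKO mice also carried a Cre transgene (+/Cre) under the human *ACTA1* promoter, which deletes *Txnrd2*, the gene of the mitochondrial thioredoxin reductase, in myofibers. The ctrl mice, littermates where possible, had no Cre, so that the deletion and the presence of Cre cannot be told apart on these arrays. The study describes this Cre as inactive in satellite cells. RNA came from whole muscle, most of which stems from myofibers.

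In an adult muscle at rest, satellite cells lie between the myofiber and its basal lamina and express *Pax7*. After injury they enter the cell cycle, express *Myod1*, and then either differentiate and fuse into fibers or return to rest. *Myf6* differs from the other myogenic factors in that mature fibers themselves express it. The comparison sets whole-muscle signals of these genes, from satellite cells and any other cells that express them, in mTKO against ctrl muscle of young adult mice.

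The deposited values are summarized probe set signals on the log2 scale, with a median between 6.06 and 6.14 on each array and a range over all arrays of 2.39 to 19.91. As a guide to the dim end of this scale, 1414 probe sets of olfactory and vomeronasal receptor genes, which serve the nose, had a median signal of 4.28 and a 95th percentile of 5.49. *Txnrd2* itself was at 7.51, 7.54, 7.96, 7.79 and 7.90 in mTKO replicates 1 to 5 and at 8.82, 9.08, 8.67, 8.47 and 8.65 in ctrl replicates 1 to 5, with no overlap and a log2 difference (mTKO minus ctrl) of -0.998 (limma adjusted p = 0.118). Whether its probes lie in the deleted exons was not given in the sources used here. The markers of myofibers stood near the top of the scale in both genotypes, and the mean of all 10 was 19.01 to 19.03 in mTKO and 19.01 to 19.08 in ctrl arrays. Of the 10 members, 8 had a mean signal above the 95th percentile of the receptor probe sets. *Calcr* lay below it in all 10 arrays and *Pax7*, the defining satellite cell gene, in all but 1 array.

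To show the sequence from which these genes are transcribed, the 250 bases before the transcript start are given for 4 members. *Pax7* and *Myf5* had the largest differences between genotypes, and *Cdh15* and *Chodl* hold the most E-boxes, the CANNTG letters to which proteins of the MyoD family bind. The sequences are those of RefSeq on GRCm38.p6, read 5′ to 3′ on the strand of the gene, and capitals mark E-boxes. *Pax7* is at chr4:139832969-139833218 on the minus strand, *Myf5* at chr10:107486135-107486384 on the minus strand, *Cdh15* at chr8:122848124-122848373 on the plus strand and *Chodl* at chr16:78930698-78930947 on the plus strand.
Pax7: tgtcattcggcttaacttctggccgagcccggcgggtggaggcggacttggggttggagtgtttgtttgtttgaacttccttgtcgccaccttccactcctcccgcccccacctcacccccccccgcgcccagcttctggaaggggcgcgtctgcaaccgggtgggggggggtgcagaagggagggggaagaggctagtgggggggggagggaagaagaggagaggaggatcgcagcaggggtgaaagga
Myf5: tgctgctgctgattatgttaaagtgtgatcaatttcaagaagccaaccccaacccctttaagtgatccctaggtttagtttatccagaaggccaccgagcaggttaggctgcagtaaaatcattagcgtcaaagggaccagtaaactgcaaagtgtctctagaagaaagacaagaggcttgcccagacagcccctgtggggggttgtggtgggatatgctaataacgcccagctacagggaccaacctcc
Cdh15: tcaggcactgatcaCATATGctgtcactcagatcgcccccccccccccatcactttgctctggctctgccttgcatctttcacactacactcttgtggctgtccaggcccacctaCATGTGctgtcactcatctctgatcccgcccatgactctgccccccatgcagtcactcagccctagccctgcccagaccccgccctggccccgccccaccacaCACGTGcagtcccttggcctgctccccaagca
Chodl: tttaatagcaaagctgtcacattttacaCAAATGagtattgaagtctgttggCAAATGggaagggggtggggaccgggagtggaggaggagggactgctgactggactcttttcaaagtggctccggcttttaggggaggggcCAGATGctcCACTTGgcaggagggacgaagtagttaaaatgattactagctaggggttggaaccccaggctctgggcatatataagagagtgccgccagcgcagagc
The window of *Pax7* and that of *Myf5* hold 0 E-boxes, that of *Cdh15* holds 3 and that of *Chodl* holds 4. Of 32851 windows of this length in the table, 66.2% hold at least 1 E-box. The letters CAGCTG, one of the forms that MyoD prefers, stand in 13.0% of all windows and CAGGTG, on either strand, in 17.2%. Neither form was found in the printed windows. A match of these letters is a description of the sequence and does not show that a factor binds. Of the members, 6 have an entry in the promoter table.

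Of the 10 members, 0 were higher and 0 were lower in mTKO muscle at an adjusted p under 0.05 from limma with Benjamini-Hochberg adjustment over all 22206 probe sets, and the adjusted p-values ran from 0.759 to 0.995. Of all probe sets, 0.0045% were higher and 0% were lower at that threshold. At an unadjusted p under 0.05, 1 member, *Pax7*, was higher and 0 were lower by limma, against 3.1% higher, 3.26% lower and 6.36% in either direction among all probe sets. The methods' t-test gave the same count of 1 at an unadjusted p under 0.05 (6.05% of all probe sets in either direction) and 0 after adjustment. A count of 1 in 10 is near these shares. At the thresholds of the methods, which also ask for a fold change above 2, 0 members were higher and 0 were lower, against 0.0225% and 0.036% of all probe sets. In 0 members did the arrays of the genotypes separate without overlap, as they did upward in 0.495% and downward in 0.527% of all probe sets. With 6 positive and 4 negative log2 differences (mTKO minus ctrl) and a median of 0.02, the members were centred where all probe sets were, of which 49.9% were positive with a median of 0.

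**Figure D1:**
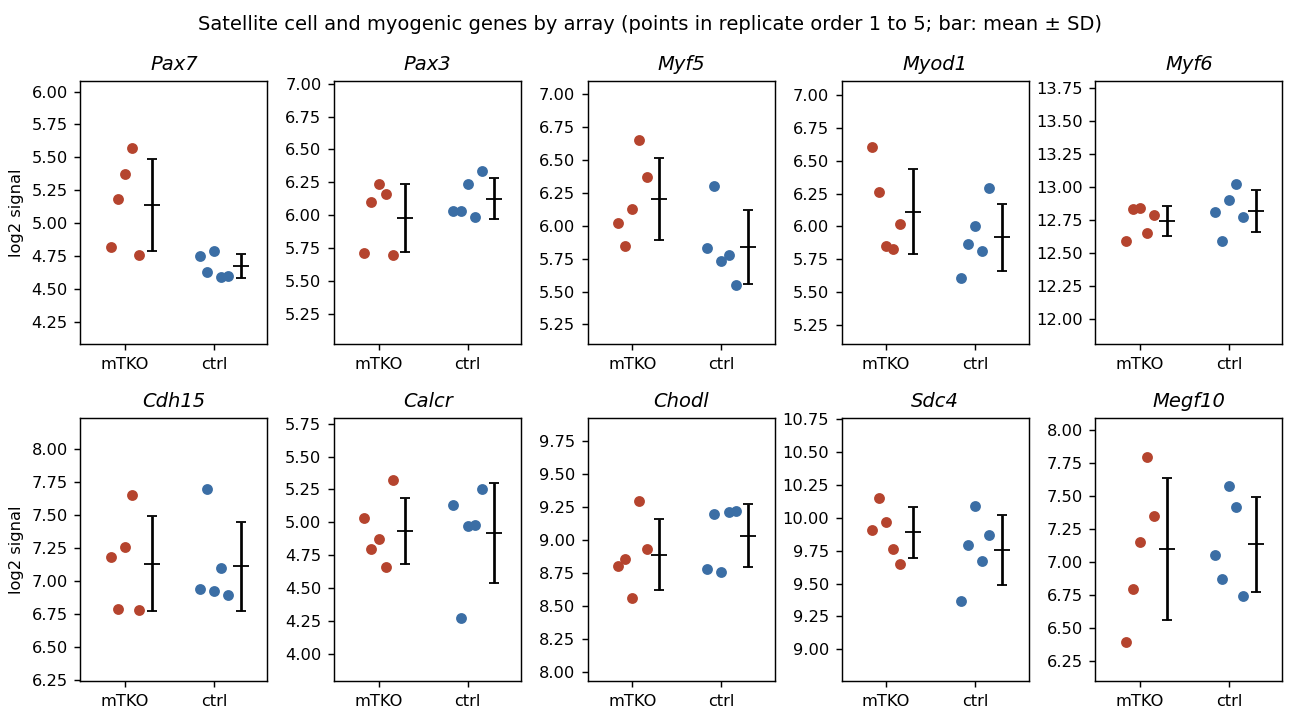
Log2 signal (y axis, spanning 2 units in every panel) of each member in 5 mTKO arrays (red, left) and 5 ctrl arrays (blue, right), with points in replicate order and the mean ± SD beside them. The groups overlap in all 10 panels, and only in *Pax7* do 4 mTKO arrays lie above every ctrl array.

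*Pax7* encodes the paired-box factor that satellite cells need to persist in adult muscle. Its log2 signal was 4.82, 5.18, 5.37, 5.57 and 4.76 in mTKO replicates 1 to 5, against 4.75, 4.63, 4.79, 4.59 and 4.60 in ctrl replicates 1 to 5. Of the mTKO arrays, 4 lay above the highest ctrl array and the remaining one, replicate 5, lay within the ctrl range. The mean was 5.14 ± 0.35 (SD, n = 5) in mTKO and 4.67 ± 0.09 (SD, n = 5) in ctrl. This is a log2 difference of 0.47 (SE 0.17, 95% interval 0.10 to 0.84), measured on a probe set that exceeded the 95th percentile of the receptor probe sets in only 1 of 10 arrays. Permuting the arrays exactly (exact permutation test, two-sided) gave p = 0.0159, and the limma adjusted p was 0.759. How much of a signal at this level is background was not tested. In whole-muscle RNA, fewer or more cells of a type and less or more RNA per cell cannot be told apart.

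The higher mTKO values of *Pax7* rested most on replicates 3 and 4. Replicate 4 had the highest signal of all 10 arrays for 4 members, *Pax7*, *Myf5*, *Chodl* and *Megf10*, and no other array was highest for more than 1. The same array had the highest mean of all 10 arrays in the lists of fibro-adipogenic progenitors, tenocytes, lymphocytes and newly formed fibers. It was also highest of all 10 in those of surface genes and of myoblast differentiation and fusion. Among the mTKO arrays it was highest in those of endothelium, pericytes and ligands. It was not the highest mTKO array in those of macrophages, Schwann cells, adipocytes, myofibers and red blood cells. Nor was it in those of the Notch pathway, dividing cells, and partners and inhibitors of the myogenic factors. The mean of the 6 markers of fibro-adipogenic progenitors that were measured, of 8 listed, was 13.14 there, against 12.14 to 12.50 in the other mTKO arrays and 12.37 to 12.74 in ctrl. The mean of 5 of 5 tenocyte markers was 10.67, against 9.75 to 10.28 in the other mTKO and 10.03 to 10.39 in ctrl arrays. Among the fibro-adipogenic markers, *Col1a1* and *Col3a1* were at 14.06 and 14.19 in it, while *Osr1* was at 6.76, its lowest signal in any array. Genes of newly formed fibers averaged 10.82 in it, against 10.05 to 10.41 in the other mTKO and 9.65 to 10.22 in ctrl arrays. Without that array the log2 difference of *Pax7* was 0.36 (limma adjusted p = 0.829). In mTKO replicate 3 the mean was 12.40 for fibro-adipogenic progenitors and 9.75 for tenocytes, the latter the lowest of all 10 arrays. The part of these cells and fibers in the *Pax7* signal was not tested.

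*Pax3*, the paralog of *Pax7* that directs muscle progenitors in the embryo and is kept by satellite cells of only some adult muscles, did not share this direction. Its signal was 5.71, 6.10, 6.24, 6.16 and 5.70 in mTKO and 6.03, 6.03, 6.24, 5.99 and 6.34 in ctrl replicates 1 to 5. The lowest pair of values belonged to mTKO replicates 1 and 5, the arrays in which *Pax7* was also lowest among mTKO. Between genotypes the means differed by -0.14 (SE 0.16, 95% interval -0.49 to 0.20, limma adjusted p = 0.922). The difference of the medians had the opposite sign, at 0.07.

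**Figure D2:**
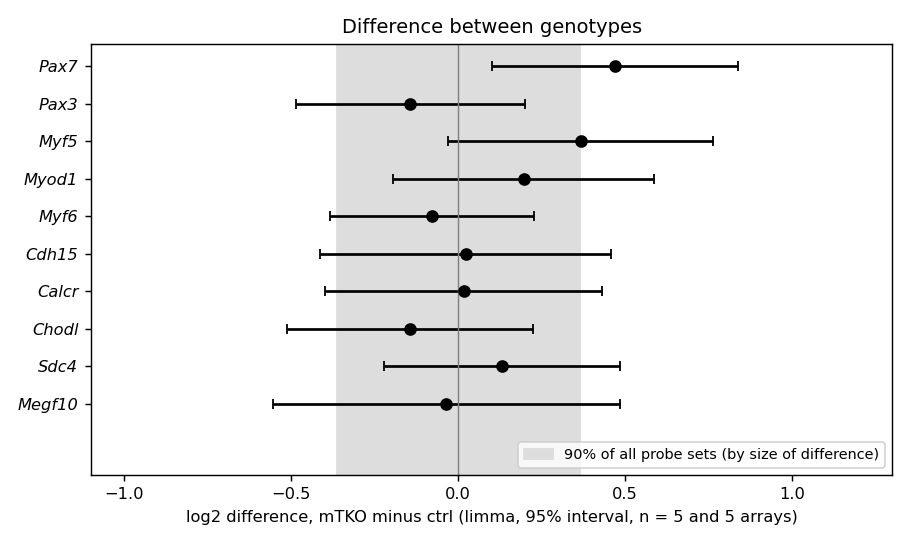
Log2 difference of each member, mTKO minus ctrl, with its 95% interval from limma (n = 5 and 5 arrays). The grey band marks the size that 90% of all probe sets did not exceed, 0.36, and only *Pax7* (0.47) and *Myf5* (0.37) lie outside it.

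*Myf5*, *Myod1* and *Myf6* are basic helix-loop-helix factors that commit cells to the muscle lineage, and *Myf5* and *Myf6* are direct neighbours on chromosome 10. *Myf5*, expressed in satellite cells and the first of the family to appear in the embryo, had signals of 6.02, 5.85, 6.13, 6.65 and 6.37 in mTKO replicates 1 to 5. In ctrl replicates 1 to 5 they were 5.83, 6.30, 5.73, 5.78 and 5.55. All 5 mTKO arrays lay above the ctrl mean, but only 2 lay above the highest ctrl array, replicate 2. Between genotypes the means differed by 0.37 (SE 0.19, 95% interval -0.03 to 0.76, limma adjusted p = 0.814), and the exact permutation test gave p = 0.0794. Without ctrl replicate 2 the log2 difference was 0.48.

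*Myod1*, which rises when satellite cells are activated, had signals of 6.60, 6.26, 5.85, 5.83 and 6.02 in mTKO and of 5.61, 5.87, 6.0, 5.81 and 6.29 in ctrl replicates 1 to 5. The highest value was that of mTKO replicate 1, and the remaining mTKO arrays lay within the ctrl range. Between genotypes the means differed by 0.20 (SE 0.18, 95% interval -0.20 to 0.59, limma adjusted p = 0.903). Without mTKO replicate 1 the log2 difference was 0.07.

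*Myf6*, the member that myofibers express, was measured far above the dim end of the scale and with the smallest spread of the 10 over all arrays. Its signal was 12.59, 12.83, 12.84, 12.65 and 12.79 in mTKO replicates 1 to 5. In ctrl replicates 1 to 5 it was 12.81, 12.59, 12.90, 13.02 and 12.77. The 2 groups spanned nearly the same values. The log2 difference was -0.08 (SE 0.14, limma adjusted p = 0.967), and its 95% interval corresponds to a fold change between 0.767 and 1.17.

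Among the surface proteins, *Cdh15* encodes M-cadherin, by which satellite cells adhere to the fiber. Its signals were 7.18, 6.79, 7.26, 7.65 and 6.78 in mTKO and 6.94, 7.70, 6.92, 7.10 and 6.89 in ctrl replicates 1 to 5. Each group held 1 array well above its others, mTKO replicate 4 and ctrl replicate 2. The mean log2 signals, mTKO minus ctrl, differed by 0.02 (95% interval -0.41 to 0.46, limma adjusted p = 0.993). Without mTKO replicate 4 this difference was -0.11, and without ctrl replicate 2 it was 0.17.

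*Calcr*, the gene of the calcitonin receptor, marks satellite cells at rest and helps to keep them there. It had signals of 5.03, 4.80, 4.87, 4.66 and 5.32 in mTKO and of 5.13, 4.27, 4.97, 4.98 and 5.25 in ctrl replicates 1 to 5. The lowest value of all was that of ctrl replicate 2, and the highest, 5.32, was that of mTKO replicate 5. The mean log2 signals, mTKO minus ctrl, differed by 0.02 (95% interval -0.40 to 0.43, limma adjusted p = 0.995). All of these values lie at the level of the receptor probe sets.

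*Chodl* encodes chondrolectin, a membrane protein with a C-type lectin domain. It had signals of 8.80, 8.86, 8.56, 9.30 and 8.93 in mTKO and of 8.78, 9.20, 8.76, 9.21 and 9.22 in ctrl replicates 1 to 5. Only 1 mTKO array, replicate 4, lay above the ctrl mean. The mean log2 signals, mTKO minus ctrl, differed by -0.14 (95% interval -0.51 to 0.22, limma adjusted p = 0.928).

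*Sdc4* encodes syndecan-4, a heparan sulfate proteoglycan that presents growth factors to satellite cells and is also made by many other cells. Its signals were 9.91, 10.15, 9.97, 9.76 and 9.65 in mTKO and 9.37, 9.79, 10.09, 9.67 and 9.87 in ctrl replicates 1 to 5. Only mTKO replicate 2 exceeded the highest ctrl array. The mean log2 signals, mTKO minus ctrl, differed by 0.13 (95% interval -0.22 to 0.48, limma adjusted p = 0.934). Without ctrl replicate 1, the lowest array, this difference was 0.03.

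*Megf10*, whose product is a receptor with EGF-like repeats that takes part in the balance of myoblast division and fusion, had the widest spread of the 10. Its signals were 6.39, 6.79, 7.15, 7.80 and 7.35 in mTKO and 7.05, 6.87, 7.58, 7.42 and 6.74 in ctrl replicates 1 to 5. The lowest and the highest array of all were both mTKO, replicates 1 and 4. The mean log2 signals, mTKO minus ctrl, differed by -0.04 (95% interval -0.55 to 0.48, limma adjusted p = 0.991).

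With 5 arrays per group, the intervals of all members but *Pax7* included 0, and the widest bounds over the 10 were -0.55 and 0.84. The SD between mTKO arrays was larger than that between ctrl arrays in 7 of 10 members, with medians of 0.29 and 0.26. This difference in spread was not tested.

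The members were also compared with each other over the 10 arrays, after the mean of each genotype had been removed. None of the 45 pairs passed an adjusted threshold, and the lowest adjusted p was 0.113 (permutation test, 100000 resamples). *Pax7* and *Pax3* had r = 0.79 (permutation p = 0.00501) and rho = 0.75 (permutation p = 0.0157). Without the 2 arrays farthest from the median of *Pax7*, mTKO replicates 4 and 5, r was 0.72. Both genes were high in mTKO replicates 3 and 4 and low in mTKO replicates 1 and 5. The SD of *Pax7* was 0.35 in mTKO and 0.09 in ctrl, so that this r rests mainly on the mTKO arrays. The permutations treated arrays of both genotypes as interchangeable, which unequal spreads do not meet. *Cdh15* and *Calcr* had r = -0.81 (permutation p = 0.004) and rho = -0.66 (permutation p = 0.0432). Without the 2 arrays farthest from the median of *Cdh15*, mTKO replicate 4 and ctrl replicate 2, r was -0.37, so that this relation rests on those arrays. *Myf5* and *Cdh15* likewise had r = 0.76 (permutation p = 0.0132) with all arrays and r = 0.02 without the 2 farthest, and *Myod1* and *Megf10* had r = -0.69 (permutation p = 0.0295) and r = -0.29. These were the 4 of 45 pairs with an unadjusted permutation p under 0.05 for r.

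**Figure D3:**
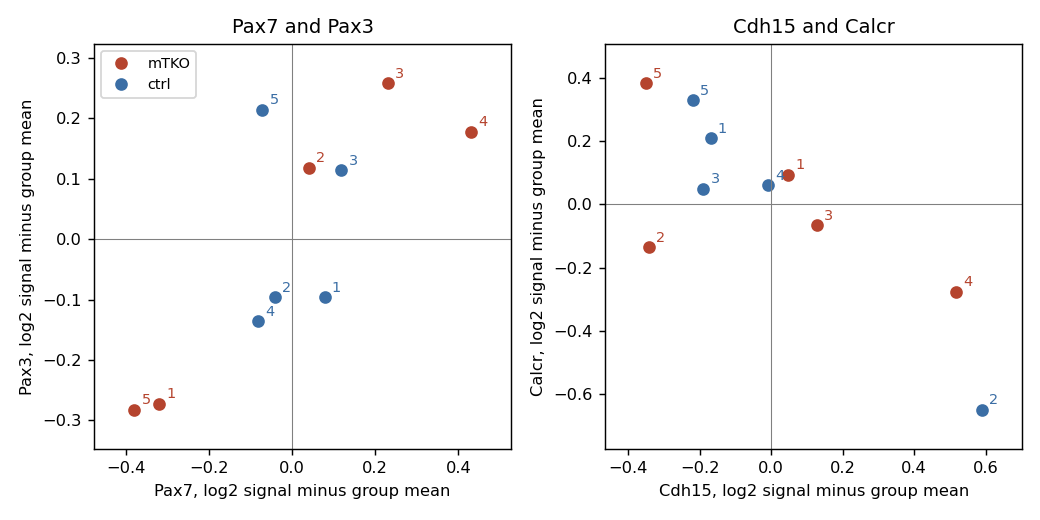
Log2 signals of 2 pairs of members, each minus the mean of its genotype, in mTKO (red) and ctrl (blue) arrays, with the replicate number at each point. *Pax7* and *Pax3* have r = 0.79, with the mTKO arrays at both ends, while the relation of *Cdh15* and *Calcr* (r = -0.81) is drawn out by mTKO replicate 4 and ctrl replicate 2.

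Of 19504 other genes, those with the highest r with *Pax7* over the 10 arrays were *Vcan* (0.96), *Prex2* (0.96), *Abcc9* (0.95), *Gpr25* (0.94) and *Vmn1r-ps103* (0.93), with the mean of each genotype removed. *Vcan* encodes the matrix proteoglycan versican. *Vmn1r-ps103* is a pseudogene of a vomeronasal receptor, and the values are a description of 10 arrays that share their processing. Their own log2 differences lay between -0.20 and 0.16.

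Genes around the members were described with lists of the same biology. The Notch pathway keeps satellite cells at rest, and the log2 difference was negative in 11 of its 14 measured genes (median -0.18). At an adjusted p under 0.05 from limma 0 were called. At an unadjusted p under 0.05 1 was lower (3.26% of all probe sets), the receptor gene *Notch1*. It stood at -0.40 (limma adjusted p = 0.783), at a signal near the floor. *Hes1*, a target of Notch, had 5.67, 5.56, 5.84, 5.80 and 5.58 in mTKO and 5.86, 5.87, 6.09, 5.85 and 6.10 in ctrl replicates 1 to 5. Each mTKO array thus lay below each ctrl array, as in 0.527% of all probe sets, with mTKO replicate 3 and ctrl replicate 4 nearly equal. The log2 difference of *Hes1* was -0.26 (SE 0.14, limma adjusted p = 0.825). On the positive side, *Numb*, whose product inhibits Notch, had 0.26 and the receptor gene *Notch2* had 0.21.

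Other surface and signalling genes of satellite cells were centred at 0.00, with 7 of 15 positive. Of these, 0 passed the adjusted threshold from limma and 1 was lower at an unadjusted p under 0.05 (3.26% of all probe sets). This was the fibroblast growth factor receptor gene *Fgfr1*, at -0.34 (limma adjusted p = 0.783). The tetraspanin gene *Cd82* had -0.25, the integrin gene *Itga7* 0.19 and *Fgfr4* 0.15. Without mTKO replicate 2 the difference of *Itga7* was 0.09. That of *Fgfr4*, which was above the 95th percentile of the receptor probe sets in 1 of 10 arrays, was 0.04 without ctrl replicate 2 or mTKO replicate 4. Several of these genes are also expressed by myofibers, endothelium or fibroblasts.

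Partners and inhibitors of the myogenic factors were on the negative side in 10 of 14 measured genes (median -0.14). In this list 0 genes passed the adjusted threshold from limma, and 1 was lower at an unadjusted p under 0.05 (3.26% of all probe sets). It was *Eya4*, a transcriptional cofactor, at -0.42, and its relative *Eya1* had a difference of -0.40 (limma adjusted p = 0.783 and 0.810). *Msc* and *Id3*, which encode inhibitory helix-loop-helix proteins, had 0.15 and 0.13.

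For myoblast differentiation and fusion, 6 of 14 genes were on the positive side (median -0.02). By limma 0 passed at an unadjusted p under 0.05 (6.36% of all probe sets in either direction) and 0 after adjustment. *Mymk* and *Mymx*, the genes of the fusion proteins myomaker and myomixer, were dim, above the 95th percentile of the receptor probe sets in 4 and 1 of 10 arrays. *Mymk* had 4.15, 6.23, 5.82, 6.04 and 5.06 in mTKO and 4.64, 5.59, 3.90, 5.19 and 4.35 in ctrl replicates 1 to 5, so that 3 mTKO arrays exceeded every ctrl array and replicate 1 lay low. The log2 difference was 0.73 (SE 0.37, limma adjusted p = 0.819). *Mymx* had -0.41 (limma adjusted p = 0.795). *Jam3*, an adhesion gene, had 0.29 and the transcription factor gene *Mef2a* -0.31.

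The highest median among these lists was that of genes expressed in newly formed fibers, with 7 of 9 positive and a median of 0.55, which was 0.32 without mTKO replicate 4. None passed the adjusted threshold from limma, while 4 were higher and 1 was lower at an unadjusted p under 0.05 (3.1% and 3.26% of all probe sets), and 1, *Actc1*, passed the thresholds of the methods. *Tnnt2*, the cardiac troponin T gene that developing muscle also uses, had 7.56, 7.68, 7.06, 6.80 and 7.68 in mTKO and 6.13, 7.18, 6.81, 6.46 and 6.25 in ctrl replicates 1 to 5. The log2 difference was 0.79 (SE 0.23, limma adjusted p = 0.661), and 3 mTKO arrays exceeded every ctrl array. *Actc1*, of which the cardiac actin is made, had the largest log2 difference of the list at 1.49 (limma adjusted p = 0.677). The other higher ones, *Myh3* and *Ankrd1*, named after their values were seen, had 0.59 and 0.55 (limma adjusted p = 0.783 for each). *Myl4*, an embryonic light chain gene, was the lower one at -0.44, and *Myh8* had -0.04 at signals of 19.71 to 19.86 in mTKO and 19.79 to 19.87 in ctrl. Its probes may also report the abundant adult myosins of similar sequence. The list was included with results on *Actc1* already known and does not stand as independent evidence.

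**Figure D4:**
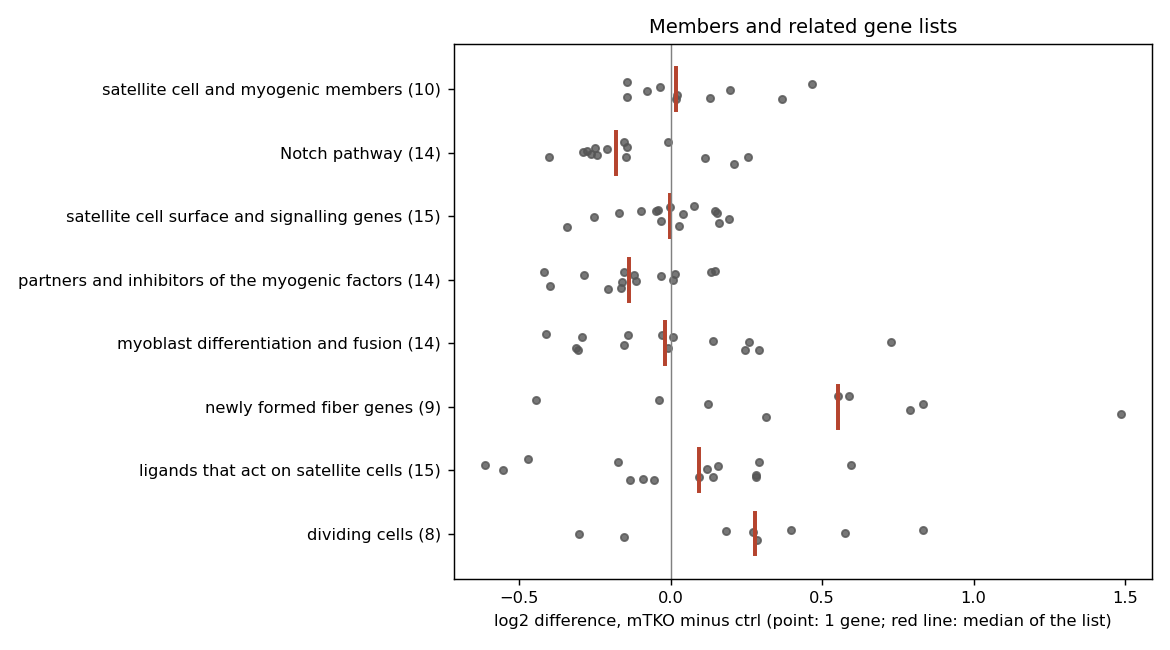
Log2 difference (mTKO minus ctrl) of each measured gene in the members and 7 related lists, with the number of genes in parentheses and the median as a red line. The members are centred at 0.02, the Notch pathway at -0.18 and the genes of newly formed fibers at 0.55.

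Ligands that act on satellite cells had 8 of 15 positive log2 differences and a median of 0.09. At an unadjusted p under 0.05 by limma 1 was higher and 2 were lower (3.1% and 3.26% of all probe sets), and 0 passed after adjustment. The higher one was *Igf2*, a growth factor of developing muscle, with 0.60. The lower ones were *Mstn*, the gene of myostatin, which restrains muscle growth, at -0.61 (SE 0.19, limma adjusted p = 0.677), and its relative *Gdf11* with -0.55 (SE 0.19, limma adjusted p = 0.726). *Fst*, whose product binds and inhibits myostatin, had 0.28, and 0.14 without ctrl replicate 3.

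Of 8 measured genes of dividing cells, 6 were on the positive side (median 0.28). By limma 3 were higher at an unadjusted p under 0.05 (3.1% of all probe sets) and 0 after adjustment. Of the 3, 2 encode inhibitors of the cell cycle, *Cdkn1a* and *Cdkn1b*. *Cdkn1a* had the largest log2 difference at 0.83 (SE 0.22, limma adjusted p = 0.588), and *Cdkn1b*, named after its value was seen, had 0.40 (limma adjusted p = 0.765). The third, *Mcm4*, of the replicative helicase, had 0.58 (limma adjusted p = 0.677). The other positive genes, *Pcna*, *Mki67* and *Cdk1*, also named after their values were seen, had 0.28, 0.27 and 0.18. The 2 negative genes, *Top2a* and *Ccna2*, which mark cells in the later cycle, had -0.30 and -0.16. Their signals were 5.43 to 6.11 and 3.29 to 4.43 in mTKO and 5.77 to 6.96 and 3.55 to 4.75 in ctrl. Without ctrl replicate 3, which was highest for *Top2a*, its difference was -0.11.

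The list means of markers of other cell types in the muscle overlapped between genotypes. The mean of 7 endothelial markers was 11.11 to 11.62 in mTKO and 11.26 to 11.71 in ctrl arrays, and that of the 6 measured of 7 macrophage markers was 6.85 to 7.50 in mTKO and 6.81 to 7.39 in ctrl arrays. For the 4 measured of 6 Schwann cell markers it was 7.92 to 9.25 in mTKO and 8.0 to 8.56 in ctrl, and for 6 pericyte and smooth muscle markers 10.38 to 10.77 in mTKO and 10.67 to 11.03 in ctrl. Of these 6, 5 had a negative log2 difference (median -0.23). By limma 2, *Myh11* and *Tagln*, were lower at an unadjusted p under 0.05 (3.26% of all probe sets) and 0 after adjustment. Of the 7 endothelial markers, 2 were negative (median 0.04). By limma both, *Tie1* and *Ly6c1*, were lower at an unadjusted p under 0.05 (3.26% of all probe sets) and 0 passed after adjustment. The part of vascular cells in the values of the Notch pathway was not tested. Of the macrophage markers, *Mrc1* was higher (0.44) and *Adgre1* lower (-0.54) at an unadjusted p under 0.05 by limma (3.1% and 3.26% of all probe sets). Of 5 tenocyte markers, 4 had a negative log2 difference (median -0.14). Adipocyte markers were most uneven, at 6.50 to 8.35 in mTKO and 6.95 to 8.77 in ctrl, and were highest in replicate 2 of each group. Of the 5 adipocyte markers, 4 had a negative log2 difference (median -0.46). Of these, *Lep* was lower (-0.46) at an unadjusted p under 0.05 by limma, at a dim signal. After adjustment 0 macrophage and 0 adipocyte markers passed. The 5 measured of 6 lymphocyte markers had mean signals below the 95th percentile of the receptor probe sets. In 2 of these lists 1 gene each separated without overlap, with the lower values in mTKO, against 0.527% of all probe sets in that direction. *Osr1*, of fibro-adipogenic progenitors, was at 6.76 to 7.37 in mTKO and 7.45 to 8.26 in ctrl (log2 difference -0.59, limma adjusted p = 0.677), and *Ly6c1*, of endothelium, at 14.21 to 14.65 in mTKO and 14.8 to 15.2 in ctrl (-0.64, limma adjusted p = 0.539). Of 6 red blood cell markers only *Alas2* was measured, at 5.86 to 6.52 in mTKO and 6.07 to 6.48 in ctrl.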

How the data were processed

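Whole GTN muscle RNA was measured on Clariom S arrays for mouse (Affymetrix), which hold 1 probe set for most genes. Per the labels and the study's methods, the authors computed the deposited log2 signals with SST-RMA in Affymetrix Expression Console 1.4, which corrects the background, normalizes between arrays and summarizes probes. Values are rounded to 2 decimals and were used as they stand. Of 22206 probe sets, 19572 have 1 symbol in the annotation of the platform. The comparison of genotypes used lmFit and eBayes of limma 3.58.1 under R 4.3.3 (7.53 prior degrees of freedom), with Benjamini-Hochberg adjustment over all probe sets and a threshold of 0.05. Beside it stand the methods' t-test (p under 0.05, fold change above 2) and an exact two-sided permutation test over the arrays. Mice are separate animals, and the small number of arrays is among the limits of the precision. Sequences came from RefSeq (GRCm38.p6), of which 6 of 10 members matched.

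The members and lists were chosen with earlier results of these data known. Named genes were the members, *Txnrd2*, up to 2 genes per list and direction with the smallest p, genes whose groups did not overlap, and the 5 genes most correlated with *Pax7*. Alternatives were other moderation, array weights, 3 scalings, 2 filters on dim probe sets, a replicate block, medians, another fold threshold and leaving out each array. The limma step was tested on simulated data. Plots came from matplotlib 3.10.9 under Python 3.11.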

Additional observations from a re-analysis of the deposited data

Results flagged for a closer look

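In 2 of 22 groups checked, over the 10 members and *Txnrd2*, 1 array stood apart from the other 4 by more than Dixon's 95% critical value of 0.71, and chance gives about 1 such group in 20. Both belong to ctrl replicate 2. Its *Cdh15* signal was 7.70, against 6.89 to 7.10 in the other ctrl arrays, and its *Calcr* signal was 4.27, against 4.97 to 5.25. Without this array, the log2 difference (mTKO minus ctrl) was 0.17 for *Cdh15* and -0.15 for *Calcr*.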

How the results depend on the processing

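No member passed an adjusted p under 0.05 from limma under any alternative. *Pax7* kept a positive log2 difference in each fit that included it (0.36 to 0.56, unadjusted p = 0.00576 to 0.0491, limma adjusted p = 0.635 to 0.905), but both filters on dim probe sets removed it. Over all probe sets, 1 passed at the settings used, against 9 with trend and robust eBayes, 0 with quantile normalization, 3 with either filter on dim probe sets, 0 with the methods' t-test after adjustment and 0 to 1 with 1 array left out. The methods' thresholds gave 13 probe sets, 228 at a fold change above 1.5, and 11 to 23 with 1 array left out. Of these, 20 were found without ctrl replicate 5, 23 without mTKO replicate 4 and 20 without mTKO replicate 5. Of the members, 2 of 5 were positive with the filter at the median of all probe sets, and 0 had an unadjusted p under 0.05 with either filter. With 1 array left out, 5 to 7 were positive and 1 to 2 had an unadjusted p under 0.05, the second being *Myf5* (without ctrl replicate 2 or mTKO replicate 2). Among the genes checked in this way, signs turned only where the log2 difference was at most 0.21 in size at the settings used. The median size over all probe sets was 0.142. With 1 array left out, *Cdh15* ran from -0.11 to 0.17, *Calcr* from -0.15 to 0.10, *Megf10* from -0.21 to 0.14, *Notch2* from -0.002 to 0.37 and *Ccna2* from -0.31 to 0.022. The difference of medians was 0.07 for *Pax3*, -0.11 for *Calcr* and 0.10 for *Megf10*. The list medians ran from -0.095 to 0.006 for differentiation and fusion, from -0.0325 to 0.13 for ligands, from -0.09 to 0.05 for surface and signalling genes and from 0.32 to 0.67 for newly formed fibers with 1 array left out. Of the other members, *Pax3* ran from -0.21 to -0.07, *Myod1* from 0.07 to 0.29, *Myf6* from -0.14 to -0.03, *Chodl* from -0.25 to -0.06 and *Sdc4* from 0.03 to 0.21. Among the list genes, *Id3* and *Msc* ran from 0.01 to 0.37 and from 0.07 to 0.27. *Txnrd2* passed with trend and robust eBayes and with either filter, at an unaltered log2 difference of -0.998. Whether same-numbered arrays of the genotypes share more than a number is not given in the labels. The correlation of their deviations was -0.04 to 0.16. With the replicate block, 1 probe set passed and *Pax7* kept its log2 difference of 0.47.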
